A study of Bos taurus with 14 samples.

Results

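Oxidative phosphorylation genes were followed in the mammary gland of dry, pregnant Holstein cows. They were taken from the annotation of the array by symbol: every gene whose single symbol begins with NDUFA, NDUFB, NDUFC, NDUFS, NDUFV, UQCR, COX4, COX5, COX6, COX7, COX8 or ATP5, together with SDHA, SDHB, SDHC, SDHD and CYC1. This gave 85 genes, measured by 110 probe sets, of 9155 genes named by a single symbol and 24016 probe sets tested. Complex I held 36 of them, complex II 4, complex III 9, complex IV 15 and complex V 17. The symbols also brought in 4 assembly factors of complex I (NDUFAF3, NDUFAF5, NDUFAF6 and NDUFAF8), which are counted apart, so that 81 genes code for subunits or regulators of the complexes. A gene was read from its probe set of the highest mean signal, and 22 genes had more than 1 probe set.

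The study measured mammary biopsies on 14 Affymetrix bovine arrays, in 4 groups set by photoperiod and by the day before calving. SD cows had short days with 8 h of light and LD cows had long days with 16 h of light, from the end of milking about 60 days before calving onward. The groups were SD at day -9 (4 arrays), LD at day -9 (4 arrays), SD at day -24 (3 arrays) and LD at day -24 (3 arrays). All cows were dry Holsteins in late gestation, none was lactating, and there was no group outside the SD and LD light schedules. The labels name no single cow, so it is not known whether both biopsies came from the same animals. The p-values set each difference against the spread between these arrays, which are taken as independent. They take no account of animals that may have been sampled on both days. A biopsy is bulk tissue, in which fewer cells of a type and less RNA per cell cannot be told apart.

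Oxidative phosphorylation is the mitochondrial pathway that turns the oxidation of NADH and succinate into ATP. Complexes I and II feed electrons into ubiquinone, complex III hands them to cytochrome c, complex IV passes them to oxygen, and complex V, the ATP synthase, uses the proton gradient so formed. Each complex but the second is built from proteins of both the nuclear and the mitochondrial genome. The gland meets a steep rise in ATP demand at the onset of lactation, when milk protein, lactose and fat are made. All members described here are nuclear genes. Genes of the mitochondrial genome, and COX4I2, COX6B1 and COX8C, were not analysed here.

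Nearly all members gave a clear signal. Of 85 genes, 81 lay above the median of all probe sets, and COX6A2 alone lay under the lower quartile of every array. Of the 25 other probe sets of these genes, 7 lay under that quartile. Between groups, these 25 often differed in sign from the probe set used, in 7 cases for SD against LD at day -9, 8 at day -24 and 10 and 11 for the day comparisons in LD and in SD.

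Some arrays stood apart over all probe sets. A pair of arrays, replicate 4 of LD at day -9 and replicate 3 of SD at day -24, are called here the 2 arrays of low signal. In both, 280 probe sets were lower by at least 0.7 on the log2 scale than in each of the other 12 arrays. Of these 280, 0 belong to a member. The name refers to these 280 probe sets only, and the 2 arrays were not dim as a whole. In them, 63.4% and 61.9% of all named genes lay above their own mean over the 14 arrays. Their array medians were 6.557 and 6.57, and the lowest median, 6.434, was that of LD day -24 replicate 1. On the third principal component, replicate 1 of SD at day -9 had a value of 53.9 and the other arrays had -19.5 to 17.9. On the first, replicate 1 of LD at day -24 had 62.6 and the next highest array had 32.0. Medians over the members are given below with and without these 4 arrays.

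Genes of all 5 complexes varied together from array to array. For each array, a score was taken as the mean, over the 85 genes, of the log2 deviation from the gene's mean over the 14 arrays. In SD at day -9 the scores were -0.22, 0.02, -0.05 and 0.04, against -0.04, 0.07, 0.04 and 0.25 in LD at day -9. In SD at day -24 they were 0.05, -0.18 and 0.21, against -0.18, 0.03 and -0.04 in LD at day -24. SD day -9 replicate 1 was low, with 83 of 85 genes below their own mean, against 57.7% of all named genes in that array. SD day -24 replicate 2 had 78 genes below (58.8% of all named genes) and LD day -24 replicate 1 had 73 below (64.5%). The high arrays were LD day -9 replicate 4, with 76 of 85 genes above their mean (63.4% of all named genes), and SD day -24 replicate 3, with 77 above (61.9%).

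The scores of the groups overlapped. The mean score was -0.05 ± 0.12 in SD and 0.08 ± 0.12 in LD at day -9 (SD, n = 4 each), and 0.025 ± 0.195 in SD and -0.065 ± 0.110 in LD at day -24 (SD, n = 3 each). The spread of scores within groups, pooled over the 4 groups, was 0.14, against 0.04 for the mean over all named genes. The latter is kept narrow by the number of genes averaged and by the normalization of the arrays. These 2 spreads are therefore not a like comparison. Complex III had the widest spread (0.18), as a mean over 9 genes that include UQCRC1, the most variable member. Complexes II, IV and V lay close together (0.122, 0.124 and 0.125), and complex I had 0.145. The 3 lowest and the 2 highest arrays were the same in complexes I, III, IV and V. Complex II, the enzyme shared with the citric acid cycle, differed in part: LD day -9 replicate 4 had a complex II score of 0.06, against 0.26 for complex I and 0.40 for complex III in the same array.

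**Figure D1:**
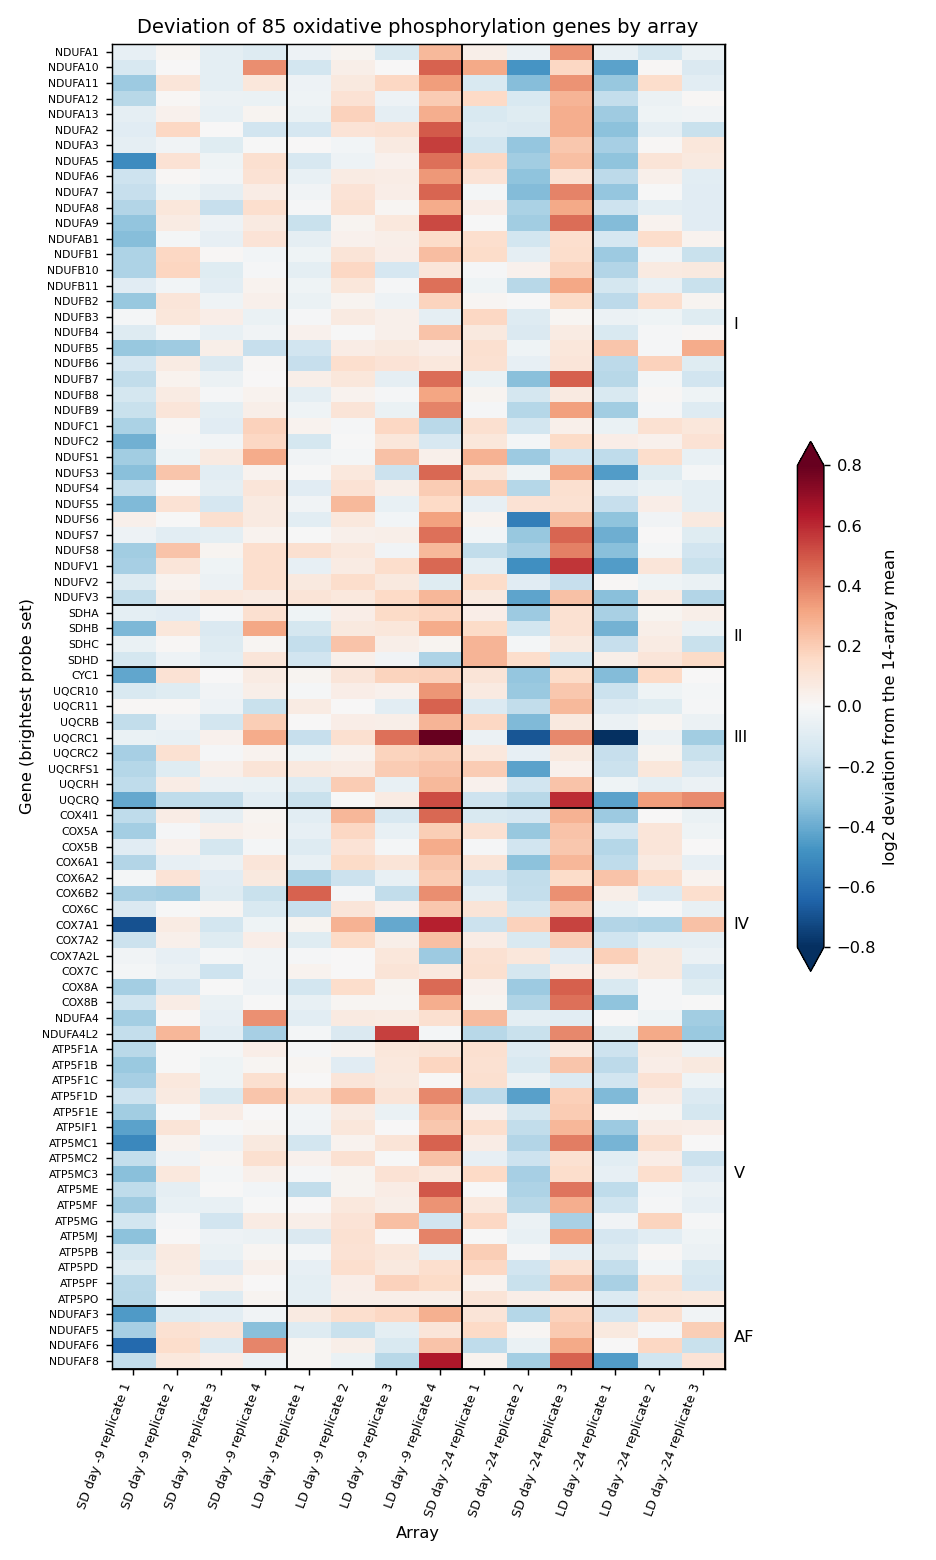
Each row is 1 of the 85 genes, grouped by complex (AF: assembly factors of complex I), and each column 1 array. Colour gives the log2 deviation from the gene's mean over the 14 arrays, and values beyond 0.8 in size, such as 1.08 for UQCRC1 in LD day -9 replicate 4, take the end colours. The columns of SD day -9 replicate 1, SD day -24 replicate 2 and LD day -24 replicate 1 are blue nearly from top to bottom, and red fills the columns of the 2 arrays of low signal, replicate 4 of LD at day -9 and replicate 3 of SD at day -24.

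**Figure D2:**
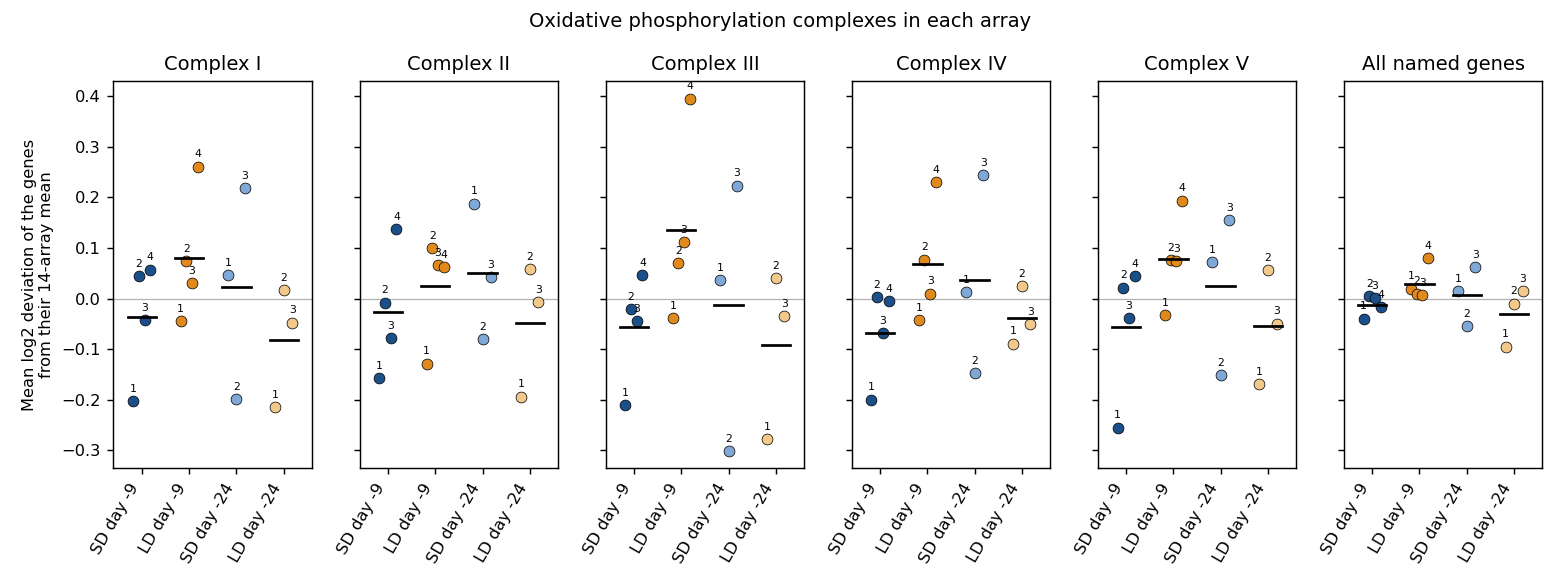
Points are arrays, labelled by replicate number, and the vertical axis is the mean log2 deviation over the genes of a complex, with all named genes in the last panel. Horizontal bars are group means. In every panel of a complex the groups overlap, and the points of complex III run from -0.30 to 0.40, against -0.09 to 0.08 for all named genes. The last panel averages many more genes, so its narrower range is not a like comparison.

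How day length bears on the gland shortly before calving is asked by setting SD against LD at day -9. The members were mostly lower in SD, by small amounts: 81 of 85 genes lay below 0, with a median log2 difference of -0.12, where 60.3% of all named genes lay below 0 with a median of -0.04. Of the named genes brighter than the median probe set, as most members are, 63.3% lay below 0 (median -0.05). Among members, the median was -0.12 for complex I, -0.08 for complex II, -0.17 for complex III, -0.13 for complex IV and -0.12 for complex V. No member passed the test: limma called 0 of 110 member probe sets at an adjusted p under 0.05, and 0% of all probe sets. At an unadjusted p under 0.05 there were 2 members, or 1.82% of the 110, against 2.77% of all probe sets. The 95% interval of the difference lay within 0.5 on either side of 0 for 63 of the 85 genes.

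In 6 of the 110 member probe sets at day -9 every SD array lay below every LD array. This is 5.45%, against 1.12% of all probe sets. The genes were NDUFB4, COX7C, ATP5MF, ATP5MG and NDUFAF3, the last with 2 probe sets. ATP5MG met this by a probe set other than the one used for the gene. None of the 110 was higher without overlap, against 1.34% of all probe sets.

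The median at day -9 rested in part on a pair of arrays. It was -0.069 once replicate 1 of SD was dropped and -0.071 once replicate 4 of LD was dropped, and between -0.12 and -0.17 with any other array dropped in turn. Without the 4 arrays that stand apart it was -0.03, with 54 of 85 genes below 0, against 0.003 for all named genes, and complex medians lay between -0.006 (II) and -0.040 (III).

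At day -24 the members leaned the other way. Of 85 genes, 73 lay above 0, with a median difference of 0.09 in SD relative to LD, where 59.9% of all named genes lay above 0 with a median of 0.04. Of the named genes brighter than the median probe set, 63.5% lay above 0 (median 0.05). Complex medians were 0.12 (I), 0.10 (II), 0.06 (III), 0.08 (IV) and 0.09 (V). Limma called 0 of 110 member probe sets (0% of all probe sets at an adjusted p under 0.05), and 0 had an unadjusted p under 0.05, against 2.42% of all. Arrays of the groups did not overlap, with SD higher, in 2 of 110 (1.82%, against 2.64% of all), which belong to NDUFA1 and NDUFB1, and with SD lower in 0 (3.02% of all). The probe set of NDUFB1 concerned is of low signal and not the one used for the gene.

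The difference at day -24 hung on single arrays of 3 a group. Among SD arrays, dropping replicate 3 gave a median of -0.002 and dropping replicate 2 gave 0.195. Among LD arrays, dropping replicate 1 gave 0.03 and dropping replicate 2 gave 0.15. Without the 4 arrays that stand apart it was -0.07, with 59 genes below 0, so that its direction turned. Averaged over days, the median of SD minus LD was -0.015, between -0.067 and 0.031 with single arrays dropped and -0.035 without the 4 arrays, and 0 of 110 member probe sets had an unadjusted p under 0.05, against 1.94% of all (limma adjusted p under 0.05: 0 of 110, and 0% of all).

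The approach to calving was compared within each photoperiod. In LD, 77 of 85 genes were above 0 for day -9 minus day -24, with a median of 0.15, where 59.9% of all named genes were above 0 with a median of 0.06. In SD, 71 of 85 genes were below 0, with a median of -0.07, where 57.7% of all named genes were below 0 with a median of -0.03. Of the named genes brighter than the median probe set, 65.5% were above 0 in LD (median 0.09) and 56.8% below 0 in SD (-0.03). Limma called 0 of 110 member probe sets in either comparison (0% of all probe sets in each). At an unadjusted p under 0.05 there were 4 probe sets in LD (3.64%, against 7.47% of all) and 0 in SD (against 4.56% of all). Averaged over photoperiods, the median was 0.03, between -0.009 and 0.078 with single arrays dropped and 0.056 without the 4 arrays, and 4 probe sets had an unadjusted p under 0.05 (3.64%, against 7.72% of all).

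In LD, complex medians for day -9 minus day -24 were 0.18 (I), 0.14 (II), 0.19 (III), 0.14 (IV) and 0.13 (V). Arrays did not overlap, with day -9 higher, in 8 of 110 probe sets (7.27%, against 4.32% of all). By the probe sets used for the genes these were ATP5F1D, ATP5MF, UQCR10, NDUFV3, NDUFA8 and NDUFB11, and SDHD was the 1 probe set lower without overlap (0.909%, against 4.66% of all). In SD, complex medians were -0.07 (I), -0.10 (II), -0.04 (III), -0.08 (IV) and -0.08 (V), and ATP5PO alone did not overlap, with day -9 lower (0.909%, against 2.94% of all), while 0 were higher without overlap (2.96% of all). In LD the median was 0.09 when replicate 4 of day -9 was dropped, 0.10 when replicate 1 of day -24 was dropped and 0.05 without the 4 arrays that stand apart. In SD it was -0.02 when replicate 1 of day -9 was dropped, -0.005 and -0.168 when replicate 3 or 2 of day -24 was dropped, and 0.07 without the 4 arrays. The comparisons share groups pairwise, so their directions are not independent of each other.

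Whether the change toward calving differed between photoperiods was tested as an interaction, day -9 minus day -24 in SD less the same in LD. Of 85 genes, 81 lay below 0, with a median of -0.23, where 63.4% of all named genes lay below 0 with a median of -0.09. Of the named genes brighter than the median probe set, 68.0% lay below 0 (median -0.12). Complex medians were -0.23 (I), -0.20 (II), -0.23 (III), -0.20 (IV) and -0.20 (V). Limma called 0 of 110 member probe sets (0% of all), and 1 had an unadjusted p under 0.05 (0.909%, against 4.15% of all), a second probe set of NDUFAF5 at -0.68. The interval of the interaction lay within 0.5 on either side of 0 for only 15 of 85 genes, so that differences of that size could not be shown or refused at this number of arrays. The median was -0.14 when replicate 3 of SD at day -24 was dropped, -0.07 without the 2 arrays of low signal and 0.04 without the 4 arrays, with 52 genes above 0.

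**Figure D3:**
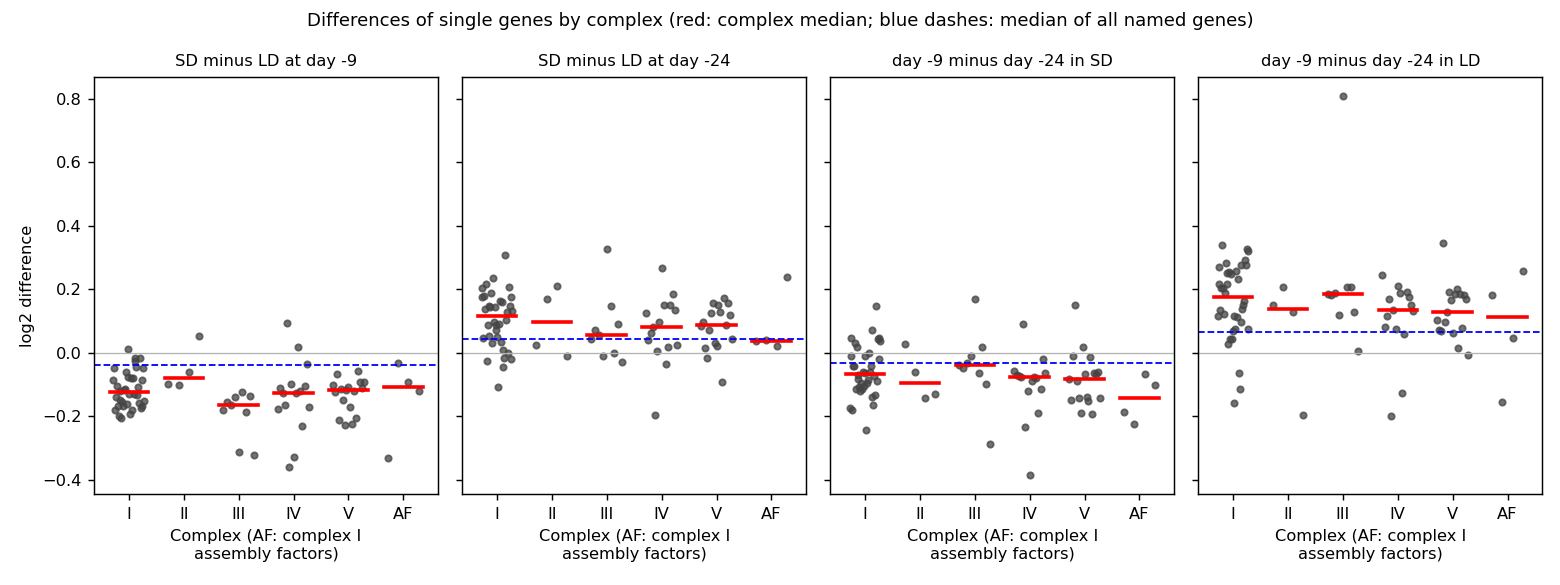
Points are the 85 genes, by complex (AF: assembly factors of complex I), and the vertical axis is the log2 difference of group means in 4 comparisons. Red bars are complex medians and the dashed blue line is the median of all named genes. At day -9 the 5 complexes lie between -0.08 and -0.17 for SD minus LD, at day -24 between 0.06 and 0.12, and the highest point, at 0.81, is UQCRC1 for day -9 minus day -24 in LD.

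**Figure D4:**
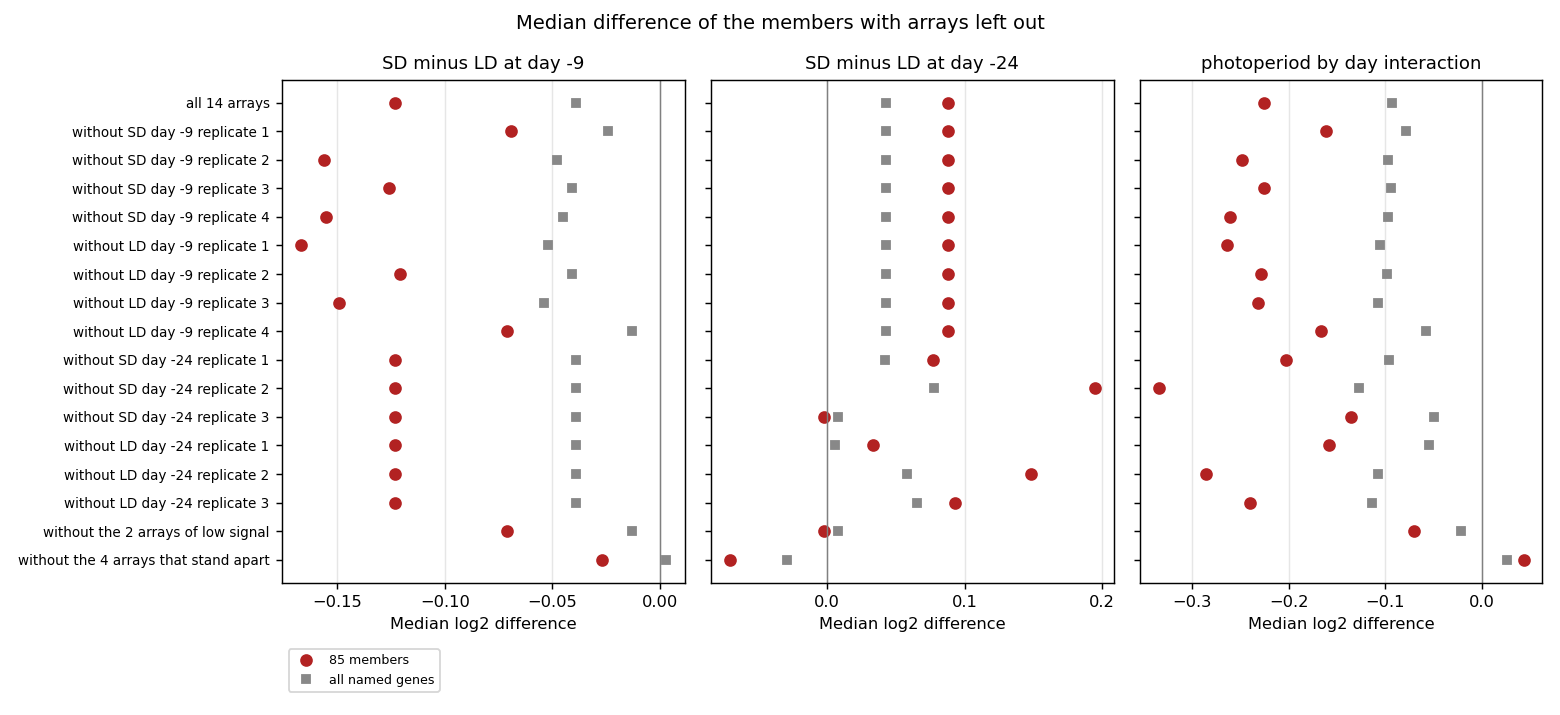
Circles are the median log2 difference over the 85 genes and squares that over all named genes, with all 14 arrays and with arrays left out as named on the vertical axis. The circle of SD minus LD at day -9 stays below 0 in every row, and that of day -24 lies at -0.002 when replicate 3 of SD at day -24 is left out. Without the 4 arrays that stand apart, the circles of day -24 and of the interaction change sign, to -0.07 and 0.04.

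Differences of single genes also depended on single arrays. Of the 10 genes of smallest p at day -9, 2 in each complex, 6 moved by over 1.5 times when some 1 array was dropped, and so did 8 of the 10 at day -24. The same held for 3 of 10 between days in LD, 9 of 10 between days in SD and 3 of 10 in the interaction. Without the 4 arrays that stand apart, 7 of 10 moved by over 1.5 times at day -9 and 8 of 10 at day -24. So did 8 of 10 between days in LD, 7 of 10 between days in SD and 9 of 10 in the interaction.

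Complex I, the NADH dehydrogenase, showed no large difference in its 6 core subunits or its 30 accessory subunits. At day -9 the medians of SD minus LD were -0.11 and -0.12, and in LD those of day -9 minus day -24 were 0.28 and 0.16. NDUFV1, which binds FMN and takes electrons from NADH, had log2 signals of 8.34, 8.70, 8.57 and 8.74 in SD and 8.54, 8.68, 8.75 and 9.07 in LD at day -9, and 8.53, 8.12 and 9.18 in SD and 8.16, 8.71 and 8.43 in LD at day -24. The groups overlapped at both days, with the highest value in SD day -24 replicate 3. NDUFV1 differed by -0.17 at day -9 (95% interval -0.62 to 0.28) and by 0.33 between days in LD (-0.16 to 0.81). NDUFS1, the large iron-sulfur subunit, was nearest to no difference among the core subunits, at -0.04 for SD minus LD at day -9 (-0.37 to 0.28) and -0.02 at day -24 (-0.40 to 0.36).

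NDUFS3, a core subunit of the arm that reaches into the matrix, had the largest difference of its complex at day -24, with signals of 9.60, 9.48 and 9.82 in SD and 9.06, 9.41 and 9.50 in LD. The values overlapped by a small margin, SD replicate 2 lying below LD replicate 3, and the difference was 0.31 (-0.10 to 0.71; limma adjusted p = 0.9997). NDUFB1, an accessory subunit of the membrane arm, differed by 0.24 at day -24 and by -0.12 at day -9, and NDUFA12, an accessory subunit of the matrix arm, by 0.18 and -0.14. NDUFA2, an accessory subunit of the matrix arm, had signals of 9.98, 10.23, 10.24 and 10.61 in LD at day -9, against 9.79, 10.05 and 9.94 in LD at day -24. It differed by 0.34 (0.00 to 0.68; limma unadjusted p = 0.048, adjusted p = 0.651), and LD day -9 replicate 1 fell inside the range of day -24.

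NDUFB5, an accessory subunit of the membrane arm, ran against most of its complex between days in LD, and with it in SD. Its signals were 9.24, 9.26, 9.59 and 9.36 in SD and 9.39, 9.60, 9.62 and 9.60 in LD at day -9, and 9.67, 9.51 and 9.64 in SD and 9.77, 9.54 and 9.84 in LD at day -24. The SD day -9 arrays were the low ones, with 3 of 4 below all others, and the LD groups overlapped. Averaged over photoperiods, day -9 minus day -24 was -0.20 (-0.39 to -0.02; limma unadjusted p = 0.035, adjusted p = 0.639). NDUFC1 and NDUFC2 were the other subunits of complex I below 0 for day -9 minus day -24 in LD, at -0.06 and -0.11. NDUFB4, a membrane arm subunit that did not overlap at day -9, had 9.97, 10.06, 10.01 and 10.05 in SD against 10.11, 10.07, 10.12 and 10.30 in LD, a difference of -0.13 (-0.33 to 0.07). The gap between its groups was narrow, at 10.06 against 10.07. NDUFV3, an accessory subunit beside the NADH site, had 9.49, 9.47, 9.55 and 9.65 in LD at day -9 against 9.05, 9.45 and 9.16 at day -24, a difference of 0.32 (-0.02 to 0.66).

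The 4 assembly factors of complex I do not remain in the finished enzyme. NDUFAF3, which acts early in assembly, had the smallest unadjusted p of all 85 genes at day -9. Its signals were 8.50, 8.85, 8.87 and 8.92 in SD against 9.02, 9.09, 9.12 and 9.24 in LD. No SD array reached an LD array, and the difference was -0.33 (-0.61 to -0.06; limma unadjusted p = 0.022, adjusted p = 0.984). At day -24 the same gene had 9.05, 8.72 and 9.14 in SD against 8.80, 9.08 and 8.92 in LD, which overlap, with a difference of 0.04. NDUFAF5, NDUFAF6 and NDUFAF8 differed by -0.03, -0.09 and -0.12 at day -9. Within SD at day -9, NDUFAF6 ranged from 4.93 to 5.95.

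Complex II, succinate dehydrogenase, has 4 subunits, and they did not lie together in sign. SDHA, the flavoprotein that oxidises succinate, differed by -0.10 for SD minus LD at day -9 (-0.35 to 0.16) and by 0.02 at day -24 (-0.27 to 0.32). SDHB, the iron-sulfur subunit, had 9.79, 10.24, 10.04 and 10.46 in SD and 10.01, 10.23, 10.24 and 10.45 in LD at day -9. Its groups overlapped throughout, and its difference of -0.10 was 0.013 when replicate 1 of SD was dropped. SDHC, a membrane anchor, had 10.75, 10.46 and 10.56 in SD and 10.29, 10.54 and 10.30 in LD at day -24, a difference of 0.21 (-0.07 to 0.49).

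SDHD, the second membrane anchor, lay apart from the other 3. Its signals were 9.95, 10.05, 10.003 and 10.18 in SD and 9.94, 10.13, 10.06 and 9.84 in LD at day -9, and 10.36, 10.23 and 9.94 in SD and 10.13, 10.19 and 10.24 in LD at day -24. In LD the day -9 arrays all lay below those of day -24, by a small margin, with a difference of -0.20 (-0.46 to 0.06; limma adjusted p = 0.669). SDHD was below its mean in both arrays of low signal, where 73 of 85 members lay above their mean (85.9%, against 49.2% of all named genes). Besides SDHD, 4 members lay below their mean in both: NDUFV2, COX7A2L, ATP5MG and ATP5PB.

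Complex III, which passes electrons from ubiquinol to cytochrome c, held the most variable member. UQCRC1, a core subunit on the matrix side, had signals of 8.07, 8.06, 8.16 and 8.42 in SD and 7.94, 8.25, 8.56 and 9.20 in LD at day -9, and 8.07, 7.44 and 8.50 in SD and 7.12, 8.07 and 7.84 in LD at day -24. The lowest value was in LD day -24 replicate 1 and the highest in LD day -9 replicate 4, and all groups overlapped. In LD it was higher at day -9 by 0.81, a 1.75-fold difference (0.14 to 1.48; limma unadjusted p = 0.022, adjusted p = 0.651). The difference was 0.53 when replicate 1 of day -24 was dropped, 0.57 when replicate 4 of day -9 was dropped, 0.39 with array weights and 0.29 without the 4 arrays that stand apart. The other probe set of UQCRC1, of low signal, differed by 0.28 (limma unadjusted p = 0.033, adjusted p = 0.651). SD minus LD was -0.31 at day -9 and 0.33 at day -24, which became -0.20 at day -24 without the 4 arrays that stand apart.

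The remaining members of complex III varied less than UQCRC1 over the 14 arrays. UQCRQ was the most variable of them, with a standard deviation of 0.331, against 0.497 for UQCRC1. UQCRC2, the partner core subunit, differed by 0.21 between days in LD. CYC1, the heme protein cytochrome c1, was at 8.04 ± 0.24 in SD and 8.22 ± 0.08 in LD at day -9 (SD, n = 4 each) and differed by -0.18 (-0.51 to 0.15). UQCRFS1, the Rieske iron-sulfur protein, differed by -0.19 at day -9 (-0.48 to 0.11) and by 0.00 at day -24 (-0.34 to 0.34). UQCRQ, a small subunit, had 7.25, 7.46, 7.47 and 7.58 in SD against 7.48, 7.66, 7.73 and 8.18 in LD at day -9. SD replicate 4 lay above LD replicate 1, and the difference was -0.32 (-0.80 to 0.16), or -0.18 when replicate 4 of LD was dropped. UQCRH, the hinge protein of cytochrome c1, differed by -0.14 at day -9 and by -0.10 between days in SD.

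Complex IV, cytochrome c oxidase, has subunits with tissue isoforms, and these are given side by side without comparing the levels of different probe sets. COX4I1, the isoform of subunit 4 found in most tissues, differed by -0.18 at day -9 (-0.50 to 0.14) and by 0.12 at day -24 (-0.25 to 0.50). COX5A and COX5B, small subunits near the catalytic core, differed by -0.11 and -0.13 at day -9. COX7C, a small membrane subunit, had 10.66, 10.63, 10.52 and 10.65 in SD against 10.71, 10.69, 10.79 and 10.76 in LD at day -9. These ranges did not overlap, and the difference of -0.12 had an interval of -0.32 to 0.08.

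COX7A1, the isoform of heart and skeletal muscle, was the second most variable member. It had 7.36, 8.13, 7.91 and 8.03 in SD and 8.08, 8.34, 7.65 and 8.68 in LD at day -9, and 7.89, 8.25 and 8.60 in SD and 7.82, 7.81 and 8.29 in LD at day -24. The groups overlapped, with SD day -9 replicate 1 lowest and LD day -9 replicate 4 highest. SD minus LD was -0.33 at day -9 (-0.84 to 0.18) and 0.27 at day -24 (-0.32 to 0.86). COX7A2, the isoform of most tissues, differed in the same directions by -0.13 and 0.15. COX6A1 of most tissues differed by -0.17 and 0.08, and COX6A2 of muscle, whose signal was at the low end of the arrays, by 0.09 and -0.20.

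COX6B2, known as the testis isoform, had 4.32, 4.30, 4.47 and 4.40 in SD and 5.05, 4.56, 4.38 and 4.94 in LD at day -9. LD day -9 replicate 3 lay inside the range of SD, and the difference was -0.36 (-0.71 to -0.02; limma unadjusted p = 0.042, adjusted p = 0.984). These are low signals: the lower quartile of all probe sets was 4.47 in the array where it was lowest. COX8A, the isoform of most tissues, differed by -0.23 at day -9 (-0.119 when replicate 4 of LD was dropped) and 0.15 at day -24, and COX8B, the muscle isoform, by -0.10 and 0.19. The probe set used for COX8B had a mean of 10.03 and its other probe set, under the lower quartile of every array, 4.24. At day -24 that other probe set went the opposite way, at 4.23 in SD and 4.40 in LD. Skeletal muscle markers, which bear on such isoforms, had a mean signal of 5.81 to 6.40 in SD and 5.93 to 6.04 in LD at day -9, and 5.94 to 6.01 in SD and 5.78 to 6.09 in LD at day -24. Of these 8 markers, MYH1, ACTA1, MB and CKMT2 were of low signal, and their part in COX7A1 was not tested.

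Some genes of complex IV are regulators or late additions. NDUFA4, once counted to complex I, differed by -0.04 at day -9 (-0.34 to 0.27) and by 0.14 at day -24 (-0.21 to 0.48). NDUFA4L2, its relative induced by low oxygen, had 5.83, 6.29, 5.94 and 5.75 in SD and 6.01, 5.91, 6.57 and 6.01 in LD at day -9, which overlap, with a difference of -0.17 (-0.59 to 0.25). COX7A2L, which helps to join respiratory complexes into supercomplexes, was one of the 4 members above 0 at day -9, at 0.02 (-0.21 to 0.25). The other 3 were NDUFB3 (0.01), SDHD (0.05) and COX6A2 (0.09).

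Complex V, the ATP synthase, had all 17 genes below 0 for SD minus LD at day -9 and 15 of 17 above 0 at day -24. ATP5F1A, the alpha subunit, had 11.82, 12.04, 12.02 and 12.09 in SD and 12.03, 12.07, 12.13 and 12.14 in LD at day -9. The groups overlapped, and the difference was -0.10 (-0.31 to 0.11). ATP5F1B, the catalytic beta subunit, differed by -0.12 (-0.38 to 0.13), with SD day -9 replicate 1 at 10.9995 and the other 3 SD arrays at 11.26 to 11.31. The 3 genes of the c ring, which code for the same mature protein, differed by -0.23 (ATP5MC1), -0.12 (ATP5MC2) and -0.11 (ATP5MC3) at day -9.

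ATP5F1D, the delta subunit of the central stalk, had 9.73, 9.96, 9.77 and 10.11 in SD and 10.01, 10.14, 9.99 and 10.28 in LD at day -9, and 9.68, 9.46 and 10.08 in SD and 9.54, 9.95 and 9.78 in LD at day -24. In LD every day -9 array lay above every day -24 array, by a difference of 0.35 (-0.00 to 0.70; limma unadjusted p = 0.051, adjusted p = 0.651). In SD the days overlapped, with a difference of 0.15. Averaged over photoperiods it was 0.25 (limma unadjusted p = 0.048, adjusted p = 0.646). The other probe set of ATP5F1D did not show this. Its means were 8.27 at day -9 and 8.25 at day -24 in LD, and 8.17 and 8.31 in SD. Its difference was opposite in sign in SD and averaged over photoperiods. ATP5MF, the f subunit of the membrane part, had 10.14, 10.37, 10.37 and 10.43 in SD against 10.43, 10.51, 10.47 and 10.79 in LD at day -9, and 10.27, 10.42 and 10.36 in LD at day -24. It lay lower in SD without overlap and, in LD, higher at day -9 without overlap, by -0.22 and 0.20. Both gaps were narrow, at 10.428 in SD against 10.434 in LD, and 10.434 at day -9 against 10.423 at day -24. SD minus LD at day -9 was -0.146 when replicate 4 of LD was dropped.

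The other genes of complex V named by the rule differed by small amounts. ATP5MJ, a short membrane protein of the synthase, differed by -0.21 at day -9 (-0.49 to 0.08), or by -0.107 when replicate 4 of LD was dropped, and ATP5PD, the d subunit of the side stalk, by 0.16 at day -24. ATP5PO, which ties the side stalk to the catalytic head, had 11.27, 11.49, 11.39 and 11.51 in SD at day -9 against 11.59, 11.54 and 11.53 in SD at day -24. These did not overlap, and the difference was -0.14 (-0.36 to 0.08). ATP5IF1, the inhibitor that stops the synthase from running backward, differed by -0.15 for SD minus LD at day -9 and by 0.12 at day -24.

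**Figure D5:**
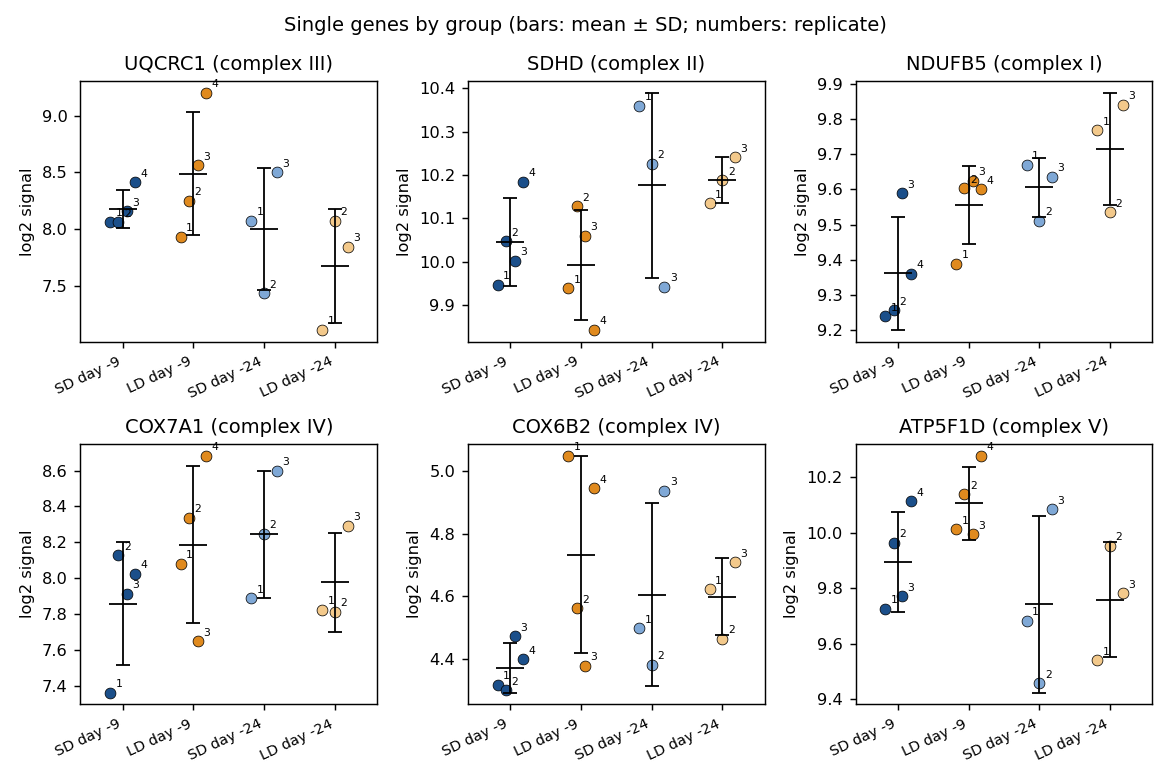
Log2 signal of UQCRC1, SDHD, NDUFB5, COX7A1, COX6B2 and ATP5F1D by group, each from its probe set of the highest mean signal. Points are arrays with their replicate number, and bars are the mean ± SD of 4 arrays at day -9 and 3 at day -24. UQCRC1 reaches 9.20 in LD day -9 replicate 4 and 7.12 in LD day -24 replicate 1, and in LD all ATP5F1D points of day -9 lie above those of day -24.

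At day -9, genes around the pathway lay mostly below 0, apart from its regulators, where 60.3% of all named genes lay below 0 (median -0.04). Of 21 measured assembly factors and electron carriers outside the members, 17 lay below 0 for SD minus LD at day -9 (median -0.14), as did 13 of 14 genes of the citric acid cycle and pyruvate dehydrogenase (-0.12) and 15 of 15 glycolytic genes (-0.14). None of these passed an adjusted p under 0.05 in limma, and PFKM, the muscle-type phosphofructokinase, was the 1 gene of these 3 lists with an unadjusted p under 0.05 at day -9, at -0.63 (limma adjusted p = 0.984), where 2.77% of all probe sets met it. At day -24, 13 of 15 glycolytic genes lay above 0 (median 0.12) and 8 of 14 of the citric acid cycle (0.04), where 59.9% of all named genes did (0.04). The direction at day -9 was thus shared with cytosolic genes of glycolysis. For day -9 minus day -24 in LD, 18 of the 21 assembly factors and carriers, 9 of 14 citric acid cycle genes and 14 of 15 glycolytic genes lay above 0 (medians 0.17, 0.04 and 0.16, against 0.06 for all named genes). In SD, 13, 11 and 13 of the same lists lay below 0 (medians -0.06, -0.04 and -0.11, against -0.03 for all named genes). Regulators of mitochondrial biogenesis were split, with 7 above and 6 below 0 at day -9 and a median of 0.01. Among them NRF1, a transcription factor for respiratory genes, differed by 0.22, and PPARGC1A, its coactivator, by -0.59 (limma unadjusted p = 0.160, adjusted p = 0.984). Of 15 measured carriers and pores of the mitochondrial membranes, 11 lay below 0 at day -9 (median -0.05), a list that counts ATP5IF1 too.

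Markers of the cells in a biopsy were read beside these values. At day -9, all 7 fibroblast markers lay lower in SD (median -0.26), with a mean signal of 10.79 to 11.25 in SD and 11.17 to 11.62 in LD, and so did all 4 macrophage markers (-0.32) and all 3 neutrophil markers (-1.28). Mean macrophage signal was 8.32 to 9.07 in SD and 8.87 to 9.66 in LD, and mean neutrophil signal 5.51 to 8.04 in SD and 6.37 to 8.41 in LD. SD day -9 replicate 1, the array of the lowest member score, set some of these ends. It had 10.79 for fibroblast and 8.04 for neutrophil markers, where the other SD arrays had 11.15 to 11.25 and 5.51 to 6.38. Its mean deviation was 0.459 for luminal, 0.605 for myoepithelial, 0.467 for adipocyte and 0.023 for macrophage markers. Luminal epithelial markers lay higher in SD in 9 of 10 genes (median 0.06) and alveolar secretory markers in 6 of 6 (0.06). At day -24 the medians were -0.02 for fibroblast, -0.18 for macrophage, -0.29 for neutrophil, 0.08 for luminal and -0.06 for alveolar markers. Adipocyte markers had a median of 0.02 at day -9 and -0.12 at day -24, with ADIPOQ, LEP, PCK1 and UCP1 of low signal. Endothelial markers had medians of 0.18 and 0.03 at day -9 and day -24, myoepithelial markers 0.09 and 0.11, lymphocyte markers -0.11 and 0.08, and erythrocyte markers 0.10 at both. No marker passed an adjusted p under 0.05 in limma, and at day -9 an unadjusted p under 0.05 was met by 2 of 7 fibroblast, 1 of 4 macrophage, 1 of 3 neutrophil and 1 of 5 erythrocyte markers, against 2.77% of all probe sets. Between days in SD, 8 of 9 adipocyte markers (median 0.42), 8 of 10 luminal (0.15) and 6 of 6 alveolar markers (0.11) were above 0, and all 7 fibroblast (-0.15) and 6 lymphocyte markers (-0.14) were below 0. Between days in LD, all 3 neutrophil (0.75), 5 of 7 fibroblast (0.17), 7 of 9 adipocyte (0.17) and 2 of 4 macrophage markers (0.31) were above 0. In the interaction, all 3 neutrophil (-0.70), 6 of 7 fibroblast (-0.34) and all 4 macrophage markers (-0.15) were below 0. The labelled tissue held its markers, with a mean alveolar signal of 12.68 to 13.18 in SD and 12.63 to 12.98 in LD at day -9, and 12.43 to 12.89 in SD and 12.40 to 13.10 in LD at day -24. The part of cell makeup in the results on the members was not tested.

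The difference between 3-prime and 5-prime control probe sets, a sign of RNA quality, was highest in arrays at both ends of the member scores. Averaged over 5 control transcripts, with actin left out, it was 1.33 in SD day -24 replicate 3 and 1.21 in LD day -9 replicate 4, whose scores were high, and 1.26 in SD day -24 replicate 2, whose score was low. In SD day -9 replicate 1, the array of the lowest score, it was 0.93, within the 0.84 to 0.99 of its group. For actin alone it was highest in LD day -9 replicate 3, at 1.018. The part of RNA quality in these results was not tested.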

How the data were processed

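Mammary RNA was measured on 14 arrays. Per the labels, cows were randomly assigned, RNA had an integrity number above 7.0, and 2 µg were primed with oligo(dT). Per the submitters' processing notes, the authors summarised the arrays by RMA, which gave deposited log2 values, 1 per probe set and array. The software version is not given in the sources used here. RMA brings the probe values of the arrays to a common distribution, so a shift shared by all genes cannot be seen. The medians of the deposited values still differed between arrays, from 6.434 to 6.609. Arrays have no read depth, and their number limits the precision.

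Of 24128 probe sets, 112 controls were left out. Of the rest, 13292 carry 1 symbol, 86 several and 10638 none. The 4 group means were estimated over all 14 arrays and 24016 probe sets with limma 3.58.1 under R 4.3.3, using 7 contrasts, a two-sided moderated test and Benjamini-Hochberg adjustment over all probe sets. The procedure was tested on simulated data. The members and lists were chosen with earlier results of these data known. Besides members that pass the threshold, the text names, by rule, core subunits, tissue isoforms and, in each complex, the 2 genes of smallest p in 5 contrasts. Members without overlap, of widest spread, or against the majority were named after their values were seen. Alternatives were a signal filter, intensity trend, robust prior, array weights, the mean of a gene's probe sets, only the groups compared, replicate blocks, quantile normalization, median centring and arrays left out. The setting without the 4 arrays was chosen after seeing the data.

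Within a photoperiod, same-numbered arrays of the 2 days were correlated in their deviations from group means. The values were 0.331, 0.187 and -0.313 in LD, and 0.042, 0.219 and 0.246 in SD. Arrays of different numbers within a photoperiod gave -0.330 to 0.303. So few pairs cannot decide whether a number stands for a cow. The day comparisons were left unpaired because the labels give no pairing.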

Additional observations from a re-analysis of the deposited data

Results flagged for a closer look

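Among 96 groups of 4 arrays examined (each gene named by rule and each score, at day -9), 10 had an array far from the other 3, by Dixon's gap criterion for 4 values. Chance gives about 1 in 20 such groups, and the genes are not independent of each other. SD day -9 replicate 1 was the lowest of its group for ATP5F1B (10.999), ATP5MJ (9.22), COX5A (10.91) and NDUFV3 (9.19), and for the score of the complex I assembly factors (-0.39). LD day -9 replicate 1 was the lowest for ATP5PO (11.41), NDUFB5 (9.39) and the score of complex II (-0.13). LD day -9 replicate 4 was the highest for the assembly factor score (0.31), and LD day -9 replicate 3 for NDUFA4L2 (6.57).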

How the results depend on the processing

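Limma called 0 of 110 member probe sets at an adjusted p under 0.05 in each of the 7 contrasts under every alternative run. Values that moved beyond the spread between arrays are given here, and the cause was not tested. Without the 4 arrays that stand apart, SD minus LD at day -24 was -0.071 over all members, -0.06 in complex I and -0.10 in complex IV. Day -9 minus day -24 was 0.016 in complex II in LD, and 0.072 over all members and 0.105 in complex I in SD. The interaction was 0.044 over all members, and 0.074, 0.019, 0.036, 0.009 and 0.015 in complexes I to V. Array weights gave smaller medians over all members: -0.056 for SD minus LD at day -9, 0.025 at day -24, 0.073 for the days in LD and -0.036 for the days in SD. With array weights the interaction was -0.087 over all members, -0.086 in complex I, -0.06 in complex II and -0.068 in complex V. Without the 2 arrays of low signal it was -0.07 over all members, -0.057 in complex I and -0.068 in complex IV. Single genes changed sign without the 4 arrays: UQCRC1 to -0.204 at day -24 and 0.166 in the interaction, SDHB to 0.085 for SD minus LD at day -9 and 0.082 in the interaction, and UQCRQ to 0.035, UQCRH to 0.044 and ATP5MJ to 0.004 for the days in SD. With single arrays left out, SDHB at day -9 ranged between -0.209 and 0.013, the highest without SD day -9 replicate 1. Under the alternatives, 846 complex medians moved by less than the spread between arrays and 14, given above, by more. Part of the 846 could not move, so this count does not measure robustness. The intensity trend, the robust prior and the fit of only the groups compared leave a median unchanged. So does an array dropped from a group outside the comparison. With the replicate number as a block, the median over members was 0.111 for the days in LD, -0.121 for the days in SD and -0.012 averaged over photoperiods, with 0 calls. The other 4 medians could not change under the block, as SD and LD have the same replicate numbers at each day. With arrays centred on their median, the median over members was 0.097 for the days in LD, -0.106 for the days in SD and -0.014 averaged over photoperiods. At 3 or 4 arrays a group, the intervals of most members in the interaction reach beyond 0.5, which limits what could be shown.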
